A study of Mus musculus with 12 samples.

Results

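The 38 genes described here include those that carry glucose and lactate across the cell membrane and those that break glucose down to lactate. The rest restrain the oxidation of pyruvate in mitochondria, feed the glycerol phosphate shuttle, or sense and answer low oxygen. The 38 genes were chosen by gene name. All were found among the 53932 gene identifiers measured, with a usable value in each of 12 libraries. The libraries come from C57BL/6 mouse cells grown in culture, and the study asks how one-carbon metabolites bear on cell identity. Glioblastoma, a tumour culture labelled with cerebella and stage E18.5, has 3 libraries. How that culture was made, and whether the tumour carries an engineered allele, is not given in the labels used here. MIM-Astrocytes, also 3 libraries, are cortical astrocytes moved near confluence to the serum-free medium MIM, which holds B27 and N2 supplements, FGF2 at 20 ng/mL and up to 6 metabolites (cysteine, glycine, methionine, putrescine, threonine and S-adenosylmethionine). They were collected by day 5, and the labels do not say which mixture or day these libraries had. NSC are neural stem cells of E14.5 cortex kept as neurospheres with EGF and FGF2 at 20 ng/mL each, again 3 libraries. Astrocytes, the 3 libraries that the other groups are set against, were cortical cells in medium with 10% serum, taken either by sorting for GLAST from postnatal cortex or by differentiating neurospheres, and which of these was used is not stated. Both astrocyte groups carry the age label E14.5. Whether the libraries within a group stem from different animals or cultures is not stated, so every p-value below measures the spread between these libraries, which may be technical.

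In glycolysis, hexokinases trap glucose as a phosphate, phosphofructokinases commit it to breakdown, and the later enzymes yield pyruvate. Lactate dehydrogenase turns pyruvate into lactate, or mitochondria oxidise it through pyruvate dehydrogenase, which the pyruvate dehydrogenase kinases switch off. The hypoxia-inducible factors HIF-1α (gene Hif1a) and HIF-2α (gene Epas1) are destroyed in normal oxygen after the EGLN hydroxylases mark them, and in low oxygen they switch on Vegfa, many glycolytic genes and the hydroxylases themselves. Cultured astrocytes are known as glycolytic cells that release lactate, and brain tumours of the glioma kind are known for hypoxic signalling. These statements are background: oxygen, protein, lactate and flux were not measured here.

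The letters ACGTG form the core of the element that hypoxia-inducible factors bind. RefSeq start-site windows (build GRCm38.p6) matched 34 of the 38 genes, all but Slc2a3, Gpd1, Epas1 and Ndrg1. ACGTG, read on either strand (CACGT on the other), stood in the 250 bases before the start in 24 of the 50 windows of these 34 genes (48.0%), against 5444 of all 32851 windows (16.6%). The longer CACGTG holds the core on both strands and is also the E-box of other factors. It stood in 7 of the 50 windows (14.0%), against 6.0% of all windows. Counted by gene, ACGTG stood in at least 1 window of 21 of the 34 genes, against 4998 of 27025. Hypoxia response genes were put on the list by choice, so these shares are no test of it. The windows of all genes were not limited to the genes tested here. The 200 bases before the start of 5 genes are shown as 1 example each of carrying lactate, trapping glucose, making ATP, making lactate and answering low oxygen, with capitals on each ACGTG or CACGT and no claim that a factor is bound there. Hk2 lies at chr6:82774455-82774654 on the minus strand, Vegfa at chr17:46032378-46032577 on the minus strand, Ldha at chr7:46845604-46845803, Pgk1 at chrX:106186900-106187099 and Slc16a1 at chr3:104638464-104638663, the last 3 on the plus strand. In GENCODE release M21 none of the 5 stretches overlaps an exon. The Ldha stretch lies in an intron of longer Ldha transcripts, and the other 4 overlap no annotated transcript.
Hk2: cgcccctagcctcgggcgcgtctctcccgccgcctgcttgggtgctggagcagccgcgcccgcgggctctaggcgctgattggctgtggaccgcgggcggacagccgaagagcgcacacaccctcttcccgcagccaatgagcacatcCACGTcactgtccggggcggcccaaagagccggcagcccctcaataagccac
Ldha: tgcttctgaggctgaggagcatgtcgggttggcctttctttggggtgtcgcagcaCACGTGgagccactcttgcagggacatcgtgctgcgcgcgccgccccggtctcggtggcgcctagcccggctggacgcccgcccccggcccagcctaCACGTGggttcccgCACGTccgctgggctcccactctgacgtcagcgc
Pgk1: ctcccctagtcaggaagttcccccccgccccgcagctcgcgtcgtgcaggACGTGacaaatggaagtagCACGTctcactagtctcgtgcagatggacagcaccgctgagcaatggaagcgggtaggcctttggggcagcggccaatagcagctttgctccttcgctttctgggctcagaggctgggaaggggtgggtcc
Slc16a1: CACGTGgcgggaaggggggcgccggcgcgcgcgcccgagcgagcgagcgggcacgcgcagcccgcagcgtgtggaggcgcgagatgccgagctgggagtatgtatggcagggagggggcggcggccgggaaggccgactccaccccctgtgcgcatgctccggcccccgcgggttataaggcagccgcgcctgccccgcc
Vegfa: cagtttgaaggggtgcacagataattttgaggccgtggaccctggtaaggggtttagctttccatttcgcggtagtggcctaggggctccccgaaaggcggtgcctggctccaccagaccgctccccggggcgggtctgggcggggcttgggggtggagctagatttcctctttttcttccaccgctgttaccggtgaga
The core stood at 1 place in Hk2, beginning 52 bases before the start. In Ldha it stood at 3 places, of which 2 are CACGTG, beginning 145, 48 and 34 bases before the start. Pgk1 held it at 2 places, 150 and 131 bases before the start. Slc16a1 held 1 CACGTG, 200 bases before the start. The Vegfa stretch held none, which says only that these letters are absent from these 200 bases.

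Most of the 38 genes were lowest in NSC, and most were highest in either Glioblastoma or Astrocytes. By group means, 15 genes were highest in Glioblastoma, 7 in MIM-Astrocytes, 1 in NSC and 15 in Astrocytes. Conversely, 7 were lowest in Glioblastoma, 3 in MIM-Astrocytes, 25 in NSC and 3 in Astrocytes. The same ranking was not made over all genes, so whether these counts are unusual for these groups is not known. Values are FPKM, read fragments scaled by gene length and by the fragments mapped in a library. Tests were run with limma on log2(FPKM + 1) across 16982 genes, a gene being called at a Benjamini-Hochberg adjusted p below 0.05, and differences on that log2 scale understate the change of genes near 1 FPKM. With Glioblastoma against Astrocytes, 14 of the 38 were higher (36.8% against 47% of all genes), 19 were lower (50% against 31.3%) and 5 were not called. With MIM-Astrocytes against Astrocytes, 10 were higher (26.3% against 34.8%), 19 lower (50% against 26.6%) and 9 not called. With NSC against Astrocytes, 6 were higher (15.8% against 37.7%), 30 lower (78.9% against 33.4%) and 2 not called. The lower share lay above that of all genes in each of the 3 comparisons, which share their Astrocytes libraries.

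**Figure D1:**
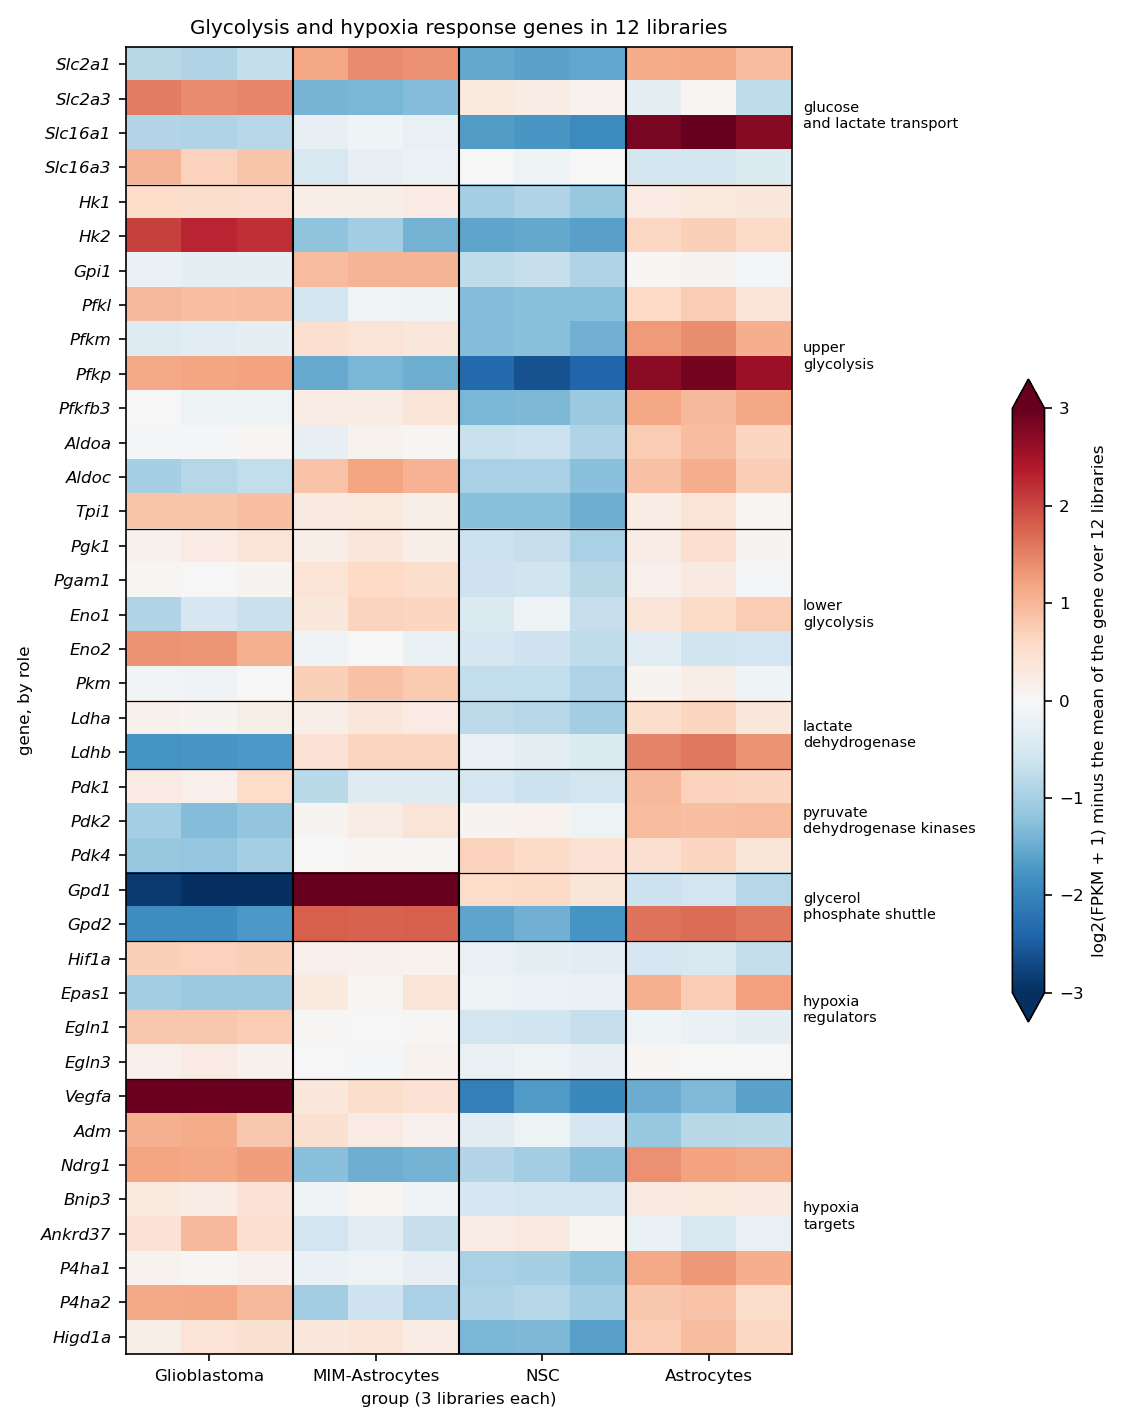
Heat map of log2(FPKM + 1) for the 38 genes (rows, grouped by role) in the 12 libraries (columns, 3 per group), each gene centred on its mean over the 12 libraries. Columns of a group look alike, most rows are blue (low) in NSC, and the strongest reds are Vegfa and Hk2 in Glioblastoma, Gpd1 in MIM-Astrocytes, and Slc16a1 and Pfkp in Astrocytes.

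Differences of at least 1 on the log2 scale were also mostly losses. Glioblastoma had 7 such genes higher and 14 lower than Astrocytes (all genes: 21.8% and 14.5%). MIM-Astrocytes had 3 higher and 8 lower (all genes: 9.1% and 8.43%), and NSC had 1 higher and 22 lower (all genes: 12.8% and 13.1%). Set against NSC, 30 genes were higher in MIM-Astrocytes (78.9% against 31% of all genes) and 4 lower (10.5% against 24.9%). Glioblastoma likewise had 30 genes higher than NSC (against 44.8% of all genes) and 6 lower (15.8% against 25.1%). The median log2 difference of the 38 genes was -0.19 in Glioblastoma, -0.24 in MIM-Astrocytes and -1.24 in NSC against Astrocytes, while over all tested genes it was 0.23, 0.09 and 0.07. Against NSC the median of the 38 was 0.92 in MIM-Astrocytes and 0.94 in Glioblastoma, with 0.02 and 0.19 over all genes. Scaling each library to a common total of all FPKM moved the all-gene median against Astrocytes to -0.26 in Glioblastoma, -0.17 in MIM-Astrocytes and -0.24 in NSC. Under that scaling, 9 of the 38 genes were higher and 27 lower in Glioblastoma, 6 higher and 24 lower in MIM-Astrocytes, and 3 higher and 31 lower in NSC. Over all 16982 genes it gave 4673 higher and 7992 lower in Glioblastoma, 3201 and 6789 in MIM-Astrocytes, and 3784 and 7852 in NSC. Median-of-ratios and quantile scaling gave 10 higher with 24 lower and 9 higher with 24 lower in Glioblastoma. A common protein-coding total gave 10 with 22. Over all 16982 genes these scalings gave, in the same order, 6476 higher and 6673 lower, 6737 and 6453, and 6980 and 6146. The all-gene median of Glioblastoma against Astrocytes was -0.01, 0.03 and 0.07 under these 3 scalings, and that of Glioblastoma against NSC lay between -0.06 and 0.03 under all 4. A common protein-coding total also moved the median of MIM-Astrocytes against NSC to -0.09.

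The groups differed in ways that touch all of these counts. Cell division genes (Mki67, Top2a, Ccnb1 and Cdk1) summed to 303.6 to 320.7 FPKM in Glioblastoma, 333 to 347.5 in MIM-Astrocytes and 102.6 to 119 in NSC, against 2.72 to 3.10 in Astrocytes. The astrocyte list of 7 markers summed to 400.8 to 424.9 FPKM in Glioblastoma, 1178 to 1424 in MIM-Astrocytes and 748 to 862.5 in NSC, against 1345 to 1526 in Astrocytes. Of these, Gfap averaged 3.20 FPKM in Glioblastoma, 7.35 in MIM-Astrocytes and 0.964 in NSC, against 258 in Astrocytes, and Aqp4 averaged 0.125, 35.5 and 10.8 FPKM in the same order, against 397 in Astrocytes. Gfap and Aqp4 do not stand for the whole list. By the sums above, its other markers together were not lower in MIM-Astrocytes than in Astrocytes, though they were lower in Glioblastoma. The 6 progenitor genes summed to 380.3 to 407.3 FPKM in Glioblastoma, 300 to 322 in MIM-Astrocytes and 365.9 to 434.9 in NSC. In Astrocytes they summed to 120.4 to 145.2 FPKM, and 4 of the 6 averaged at least 1 FPKM. Of these genes, Olig2 averaged 105.3 FPKM in Glioblastoma, 95.0 in MIM-Astrocytes and 104 in NSC, against 3.63 in Astrocytes. Olig2 does not stand for the whole progenitor list. The 6 meningeal fibroblast genes summed to 10.6 to 10.98 FPKM in Glioblastoma, 5.99 to 6.26 in MIM-Astrocytes and 23.7 to 26.4 in NSC, against 154 to 185 in Astrocytes. In Astrocytes, Ogn averaged 164 FPKM and Col1a1 2.69 FPKM, while Col3a1 averaged 0.00846 FPKM, Dcn 0.0584 FPKM and Lum was at 0. The 7 neuron genes summed to 206.8 to 222.4 FPKM in Glioblastoma, 171 to 193 in MIM-Astrocytes and 287 to 317.5 in NSC, against 109 to 116 in Astrocytes. The 5 oligodendrocyte genes summed to 21.9 to 23.4 FPKM in Glioblastoma, 85.4 to 92.6 in MIM-Astrocytes and 121 to 144 in NSC, against 72.2 to 86.02 in Astrocytes. The 5 mural genes summed to 14.75 to 15.2 FPKM in Glioblastoma, 4.48 to 5.32 in MIM-Astrocytes and 6.98 to 7.70 in NSC, against 1.94 to 2.315 in Astrocytes. The microglial list summed to at most 1.29 FPKM, the endothelial list to at most 1.92 FPKM and the blood list to at most 2.72 FPKM in any library. The part that division or other cells play in the differences below was not tested, and in bulk RNA fewer cells of a type and less RNA per cell cannot be told apart. The share of summed FPKM on protein-coding genes was 42.6% to 48.1% in Glioblastoma, 47.5% to 51.7% in MIM-Astrocytes, 39.8% to 45.9% in NSC and 56.3% to 63.3% in Astrocytes.

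Glucose and lactate carriers changed place between groups rather than moving together. Slc2a1 was high in both astrocyte groups, Slc2a3 and Slc16a3 were highest in Glioblastoma, and Slc16a1 fell in all 3 groups set against Astrocytes. Slc2a1 encodes GLUT1, the glucose carrier of glia and the blood-brain barrier. It had 3.53, 3.31 and 3.915 FPKM in Glioblastoma, 17.03, 20.4 and 19.75 in MIM-Astrocytes and 1.79, 1.65 and 1.74 in NSC, against 16.5, 16.6 and 14.2 in Astrocytes. The 4 groups did not overlap. Slc2a1 differed from Astrocytes by -1.87 in Glioblastoma, 0.26 in MIM-Astrocytes and -2.62 in NSC (log2, SE 0.082, adjusted p = 7.01e-09, 0.02 and 8.56e-10). The small rise in MIM-Astrocytes turned to -0.06 under a common total of all FPKM, was not called under median-of-ratios scaling (adjusted p = 0.071), and was not called without Astrocytes replicate 3, MIM-Astrocytes replicate 2 or MIM-Astrocytes replicate 3 (adjusted p = 0.0765, 0.0757 and 0.0664). Slc2a3 encodes GLUT3, the high-affinity glucose carrier of neurons. Slc2a3 had 18.95, 17.5 and 18.2 FPKM in Glioblastoma, 1.63, 1.69 and 1.81 in MIM-Astrocytes and 7.46, 7.14 and 6.425 in NSC, against 4.745, 6.21 and 3.08 in Astrocytes. The order was thus Glioblastoma, NSC, Astrocytes and MIM-Astrocytes, and no library crossed into another group. Slc2a3 differed from Astrocytes by 1.80 in Glioblastoma, -1.03 in MIM-Astrocytes and 0.53 in NSC (log2, SE 0.16, adjusted p = 2.20e-06, 0.000298 and 0.0135). Its NSC difference was not called under a common total of all FPKM (adjusted p = 0.255). Slc2a3 overlaps a same-strand pseudogene that averaged 10.5 ± 0.8265 FPKM in Glioblastoma, 13.3 ± 0.6396 in MIM-Astrocytes and 8.49 ± 0.253 in NSC, against 15.2 ± 1.37 in Astrocytes, so fragments could be split between them.

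Slc16a1 encodes MCT1, which moves lactate and pyruvate with a proton in either direction. Slc16a1 had 16.3, 16.03 and 16.5 FPKM in Glioblastoma, 26.1, 28.2 and 26.5 in MIM-Astrocytes and 8.92, 8.48 and 7.47 in NSC, against 229, 255 and 211 in Astrocytes. Every Astrocytes library lay above 200 FPKM and every other library below 30. Slc16a1 differed from Astrocytes by -3.75 in Glioblastoma, -3.06 in MIM-Astrocytes and -4.64 in NSC (log2, SE 0.077, adjusted p = 2.62e-11, 2.81e-10 and 1.40e-11). Slc16a3 encodes MCT4, the lactate exporter of strongly glycolytic cells. Slc16a3 was low throughout, with 2.62, 1.902 and 2.19 FPKM in Glioblastoma, 0.295, 0.523 and 0.596 in MIM-Astrocytes and 0.819, 0.624 and 0.784 in NSC, against 0.229, 0.221 and 0.3635 in Astrocytes. It reached 1 FPKM in the Glioblastoma libraries alone, so it passed the filter on low values through the group where it is high. Slc16a3 differed from Astrocytes by 1.34 in Glioblastoma and 0.45 in NSC (log2, SE 0.103, adjusted p = 5.91e-07 and 0.0026), with no call in MIM-Astrocytes (adjusted p = 0.109). Its level in Glioblastoma stayed below that of Slc16a1 in the same libraries.

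Upper glycolysis was lower in NSC for all 10 genes, lower in MIM-Astrocytes for 6 and lower in Glioblastoma for 6, while 4 were higher in Glioblastoma, of which Hk1, Pfkl and Tpi1 turned lower under at least 1 other scaling. Over all genes, 31.3% were lower in Glioblastoma, 26.6% in MIM-Astrocytes and 33.4% in NSC, and 47% were higher in Glioblastoma, near the 40.0% of the list. Of the 10, Pfkp fell most in MIM-Astrocytes and NSC, and Hk2 had the widest rise, in Glioblastoma. Hk1 encodes the hexokinase of most brain cells, and Hk2 the inducible hexokinase of muscle, fat and tumours. Hk2 had 18.1, 21.2 and 19.8 FPKM in Glioblastoma, 0.998, 1.21 and 0.711 in MIM-Astrocytes and 0.534, 0.5697 and 0.484 in NSC, against 6.06, 6.54 and 5.78 in Astrocytes. The 4 groups were ranked without overlap, with Glioblastoma on top. Hk2 differed from Astrocytes by 1.54 in Glioblastoma, -1.86 in MIM-Astrocytes and -2.22 in NSC (log2, SE 0.093, adjusted p = 8.58e-08, 4.06e-08 and 7.33e-09). Hk1 had 37.03, 36.02 and 35.25 FPKM in Glioblastoma, 28.6, 28.6 and 29.3 in MIM-Astrocytes and 11.73, 12.8 and 10.7 in NSC, against 29.4, 30.5 and 31.0 in Astrocytes. Glioblastoma lay above Astrocytes, MIM-Astrocytes just below and NSC far below, without overlap. Hk1 differed from Astrocytes by 0.25 in Glioblastoma and -1.30 in NSC (log2, SE 0.058, adjusted p = 0.00281 and 1.203e-08), with no call in MIM-Astrocytes (adjusted p = 0.333). The Glioblastoma rise turned to -0.05, -0.36 and -0.06 under median-of-ratios, common-total and quantile scaling. Under these same scalings Hk1 was called lower in MIM-Astrocytes, by -0.18, -0.40 and -0.18. In Glioblastoma it was called lower under common-total scaling alone (adjusted p = 0.0136), and its rise was not called under a common protein-coding total (adjusted p = 0.492). Hk2 as a share of summed Hk1 and Hk2 FPKM was 35.3% ± 2.18 in Glioblastoma, 3.27% ± 0.856 in MIM-Astrocytes and 4.32% ± 0.0445 in NSC, against 16.8% ± 0.998 in Astrocytes (SD, n = 3 each). These shares do not depend on the scaling of a library, and with 3 against 3 libraries an exact permutation test could not go below p = 0.1.

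The phosphofructokinase subunits come from Pfkl, Pfkm and Pfkp, named for liver, muscle and platelet. Pfkp had 24.2, 24.8 and 25.4 FPKM in Glioblastoma, 3.02, 3.38 and 3.12 in MIM-Astrocytes and 1.26, 0.854 and 1.198 in NSC, against 73.7, 82.3 and 66.8 in Astrocytes. Astrocytes stood first and Glioblastoma second, with the other groups under 4 FPKM. Pfkp differed from Astrocytes by -1.54 in Glioblastoma, -4.17 in MIM-Astrocytes and -5.16 in NSC (log2, SE 0.089, adjusted p = 6.23e-08, 9.01e-11 and 1.78e-11). The opposite-strand neighbour Pitrm1, whose span overlaps Pfkp, averaged 35.7 ± 1.18 FPKM in Glioblastoma, 26.35 ± 2.88 in MIM-Astrocytes and 25.4 ± 1.74 in NSC, against 20.9 ± 1.57 in Astrocytes. Pfkm had 66.6, 69.8 and 72.9 FPKM in Glioblastoma, 122, 116 and 110.3 in MIM-Astrocytes and 34.99, 35.8 and 31.8 in NSC, against 212, 232 and 187 in Astrocytes. Its levels descended without overlap in the order Astrocytes, MIM-Astrocytes, Glioblastoma and NSC. Pfkm differed from Astrocytes by -1.58 in Glioblastoma, -0.85 in MIM-Astrocytes and -2.58 in NSC (log2, SE 0.083, adjusted p = 2.97e-08, 8.32e-06 and 1.05e-09). Pfkl had 52.95, 50.7 and 51.3 FPKM in Glioblastoma, 17.8, 24.9 and 24.1 in MIM-Astrocytes and 10.1, 10.5 and 10.6 in NSC, against 40.7, 45.55 and 34.7 in Astrocytes. Here Glioblastoma came first, then Astrocytes, MIM-Astrocytes and NSC, again without overlap. Pfkl differed from Astrocytes by 0.36 in Glioblastoma, -0.83 in MIM-Astrocytes and -1.85 in NSC (log2, SE 0.12, adjusted p = 0.0209, 0.000182 and 2.73e-07). Its Glioblastoma rise turned to -0.25 under a common total of all FPKM, where Pfkl was called lower (adjusted p = 0.042). The rise was not called under the other 3 scalings. Nor was it called without Glioblastoma replicate 1 or Astrocytes replicate 3 (adjusted p = 0.0560 and 0.0837). Pfkp as a share of the summed FPKM of the 3 genes was 16.95% ± 0.1096 in Glioblastoma, 2.25% ± 0.114 in MIM-Astrocytes and 2.42% ± 0.532 in NSC, against 22.85% ± 0.278 in Astrocytes (SD, n = 3 each). Pfkm was the most abundant of the 3 in each library. The 3 genes together summed to 146 ± 3.07 FPKM in Glioblastoma, 141 ± 3.44 in MIM-Astrocytes and 45.7 ± 1.92 in NSC, against 325 ± 35.7 in Astrocytes.

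Pfkfb3 encodes the enzyme that makes fructose 2,6-bisphosphate, an activator of phosphofructokinase. Pfkfb3 had 14.6, 13.0 and 12.9 FPKM in Glioblastoma, 17.0, 17.1 and 19.3 in MIM-Astrocytes and 4.975, 5.07 and 6.14 in NSC, against 33.4, 29.5 and 33.7 in Astrocytes. Astrocytes were highest and NSC lowest, and no groups overlapped. Pfkfb3 differed from Astrocytes by -1.19 in Glioblastoma, -0.82 in MIM-Astrocytes and -2.38 in NSC (log2, SE 0.088, adjusted p = 4.26e-07, 1.68e-05 and 2.86e-09). Gpi1 encodes glucose-6-phosphate isomerase, and it was highest in MIM-Astrocytes. Gpi1 ranged from 183 to 194 FPKM in Glioblastoma, 428 to 451.5 in MIM-Astrocytes and 119 to 137 in NSC, against 215 to 235 in Astrocytes. Gpi1 differed from Astrocytes by -0.27 in Glioblastoma, 0.97 in MIM-Astrocytes and -0.80 in NSC (log2, SE 0.069, adjusted p = 0.00471, 6.36e-07 and 1.97e-06). Aldoa and Aldoc encode aldolases, Aldoc being the brain form that marks astrocytes. Aldoc had 148, 163 and 176 FPKM in Glioblastoma, 539, 676 and 616 in MIM-Astrocytes and 151, 150.5 and 125 in NSC, against 547, 629 and 499 in Astrocytes. Glioblastoma overlapped NSC and MIM-Astrocytes overlapped Astrocytes. Aldoc differed from Astrocytes by -1.77 in Glioblastoma and -1.97 in NSC (log2, SE 0.12, adjusted p = 2.79e-07 and 1.80e-07), with no call in MIM-Astrocytes (adjusted p = 0.396), though quantile scaling called it lower there, by -0.23 (adjusted p = 0.00683). Aldoa had 297, 296 and 319 FPKM in Glioblastoma, 258, 330 and 314 in MIM-Astrocytes and 192, 196.5 and 164 in NSC, against 522, 586 and 476 in Astrocytes. Every Astrocytes library was above all others, Glioblastoma and MIM-Astrocytes overlapped, and NSC was lowest. Aldoa differed from Astrocytes by -0.79 in Glioblastoma, -0.81 in MIM-Astrocytes and -1.51 in NSC (log2, SE 0.12, adjusted p = 0.000104, 0.000147 and 8.69e-07). The share of Aldoc in Aldoa plus Aldoc was 34.8% ± 1.31 in Glioblastoma, 67.02% ± 0.7198 in MIM-Astrocytes and 43.5% ± 0.419 in NSC, against 51.4% ± 0.337 in Astrocytes (SD, n = 3 each). Tpi1, triosephosphate isomerase, had 269.6, 268 and 279 FPKM in Glioblastoma, 180.2, 184 and 169.6 in MIM-Astrocytes and 61.9, 62.3 and 53.8 in NSC, against 175, 200 and 156 in Astrocytes. All Glioblastoma libraries were above, all NSC libraries below, and MIM-Astrocytes overlapped Astrocytes. Tpi1 differed from Astrocytes by 0.62 in Glioblastoma and -1.56 in NSC (log2, SE 0.093, adjusted p = 0.000109 and 1.11e-07), with no call in MIM-Astrocytes (adjusted p = 0.931), and the Glioblastoma rise came to 0.01 under common-total scaling (adjusted p = 0.9475) and turned to -0.06 under quantile scaling. Under these same scalings Tpi1 was called lower in MIM-Astrocytes, by -0.33 and -0.31 (adjusted p = 0.0158 and 0.00164).

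**Figure D2:**
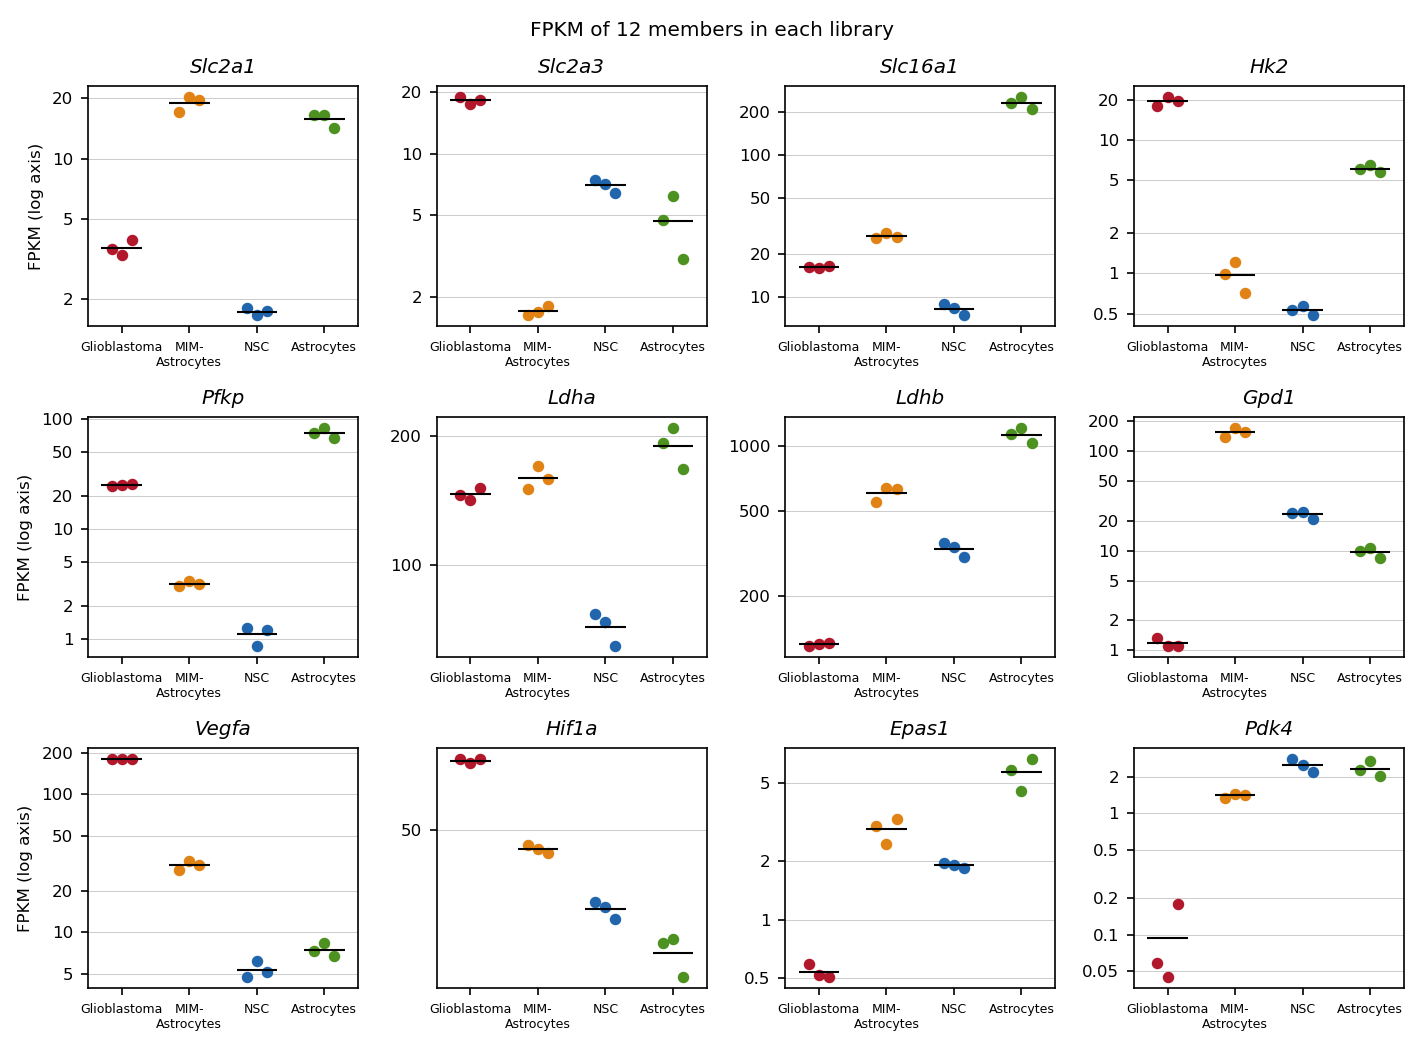
FPKM of 12 of the genes in each library (points; log axes, which differ between panels) with the group mean (line), 3 libraries per group. Glioblastoma is highest for Hk2, Vegfa and Hif1a, MIM-Astrocytes for Gpd1, and Astrocytes for Slc16a1, Pfkp and Ldhb.

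Of the 5 genes of lower glycolysis, set against Astrocytes, 1 was called higher and 1 lower in Glioblastoma (all genes: 47% and 31.3%). In MIM-Astrocytes 3 were called higher and none lower (all genes: 34.8% and 26.6%), of which Pgam1 and Eno2 lost the call under a common total of all FPKM. In NSC none was called higher and 4 lower (all genes: 37.7% and 33.4%). Pkm encodes pyruvate kinase M, the last step before pyruvate, and gene-level FPKM does not separate its M1 and M2 splice forms. Pkm had 387, 383.5 and 410.3 FPKM in Glioblastoma, 677, 762.5 and 715 in MIM-Astrocytes and 247, 248 and 218 in NSC, against 438, 472 and 377 in Astrocytes. MIM-Astrocytes were highest and NSC lowest, while Glioblastoma overlapped Astrocytes. Pkm differed from Astrocytes by 0.75 in MIM-Astrocytes and -0.85 in NSC (log2, SE 0.099, adjusted p = 8.10e-05 and 2.25e-05), with no call in Glioblastoma (adjusted p = 0.294). Under each of the 4 scalings Pkm was called lower in Glioblastoma, with differences of -0.42, -0.74, -0.31 and -0.97 under median-of-ratios, common-total, protein-coding-total and quantile scaling. Pgk1, phosphoglycerate kinase, makes the first ATP of the pathway. Pgk1 had 251, 271 and 303 FPKM in Glioblastoma, 260.3, 287 and 263 in MIM-Astrocytes and 146, 139.9 and 115 in NSC, against 267, 322.5 and 240.5 in Astrocytes. NSC stood alone below, and the other groups overlapped. Pgk1 differed from Astrocytes by -1.04 in NSC (log2, SE 0.13, adjusted p = 3.32e-05), with no call in Glioblastoma and MIM-Astrocytes (adjusted p = 0.987 and 0.89). It was called lower in Glioblastoma under the same 4 scalings, by -0.30, -0.62, -0.20 and -0.77 in that order. In MIM-Astrocytes it was called lower under common-total and quantile scaling, by -0.36 and -0.42 (adjusted p = 0.01298 and 0.000224).

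Eno1 encodes the common enolase, and Eno2 the neuronal one. Eno2 had 11.8, 11.6 and 9.63 FPKM in Glioblastoma, 3.69, 3.98 and 3.30 in MIM-Astrocytes and 2.55, 2.265 and 1.97 in NSC, against 3.06, 2.36 and 2.42 in Astrocytes. Glioblastoma stood apart at the top, MIM-Astrocytes came next, and NSC overlapped Astrocytes. Eno2 differed from Astrocytes by 1.73 in Glioblastoma and 0.37 in MIM-Astrocytes (log2, SE 0.11, adjusted p = 9.01e-08 and 0.0116), with no call in NSC (adjusted p = 0.238), though common-total scaling called it lower there, by -0.44 (adjusted p = 0.0142). The MIM-Astrocytes rise was not called under a common total of all FPKM (adjusted p = 0.4875). Eno1 had 60.6, 79.5 and 71.0 FPKM in Glioblastoma, 142, 180.4 and 179 in MIM-Astrocytes and 83.7, 102 and 70.05 in NSC, against 148, 169.9 and 193 in Astrocytes. MIM-Astrocytes overlapped Astrocytes at the higher level, and Glioblastoma overlapped NSC at the lower. Eno1 differed from Astrocytes by -1.26 in Glioblastoma and -1.001 in NSC (log2, SE 0.16, adjusted p = 3.50e-05 and 0.000264), with no call in MIM-Astrocytes (adjusted p = 0.894). The near-identical copy Eno1b averaged 33.8 ± 9.18 FPKM in Glioblastoma, 188 ± 13.4 in MIM-Astrocytes and 61.5 ± 10.8 in NSC, against 168.5 ± 42.7 in Astrocytes, so the split between them is uncertain. Their sum was 104 ± 1.102 FPKM in Glioblastoma, 355 ± 32.6 in MIM-Astrocytes and 147 ± 17.5 in NSC, against 339 ± 27.8 in Astrocytes (SD, n = 3 each). Pgam1, phosphoglycerate mutase, ranged from 92.5 to 96.3 FPKM in Glioblastoma, 121 to 139 in MIM-Astrocytes and 51.05 to 60.04 in NSC, against 88.1 to 111 in Astrocytes. Pgam1 differed from Astrocytes by 0.39 in MIM-Astrocytes and -0.80 in NSC (log2, SE 0.094, adjusted p = 0.00446 and 2.24e-05), with no call in Glioblastoma (adjusted p = 0.436), its MIM-Astrocytes rise not being called under a common total of all FPKM (adjusted p = 0.601). Pgam1 too was called lower in Glioblastoma under the 4 scalings, by -0.38, -0.70, -0.28 and -0.56 in the same order. A processed copy of Pgam1 averaged 39.3 ± 1.29 FPKM in Glioblastoma, 53.6 ± 4.47 in MIM-Astrocytes and 23.5 ± 2.301 in NSC, against 41.6 ± 5.14 in Astrocytes, and one of Pgk1 31.9 ± 10.7 FPKM in Glioblastoma, 36.4 ± 7.21 in MIM-Astrocytes and 15.7 ± 3.72 in NSC, against 28.98 ± 13.4 in Astrocytes. A sum was also taken over 16 enzymes: upper glycolysis without Pfkfb3, lower glycolysis, Ldha and Ldhb. Gapdh and Eno1b were not in it. Its share of protein-coding FPKM was 0.556% ± 0.00325 in Glioblastoma, 1.04% ± 0.0281 in MIM-Astrocytes and 0.462% ± 0.00857 in NSC, against 1.175% ± 0.0129 in Astrocytes (SD, n = 3 each). No library of one group crossed into another for this share. The sum averaged 2238 FPKM in Glioblastoma and 4144 in Astrocytes, of which Ldhb alone made 119.9 and 1125.

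Lactate dehydrogenase transcripts were weighted to the A subunit in Glioblastoma and to the B subunit in the other 3 groups. Ldha encodes the subunit that favours lactate formation, and Ldhb the subunit common in heart and brain. Ldhb had 117, 120.5 and 122 FPKM in Glioblastoma, 548, 639 and 629.9 in MIM-Astrocytes and 355, 339 and 305.5 in NSC, against 1132, 1209 and 1032 in Astrocytes. The 4 groups were separate, with Astrocytes first and Glioblastoma last. Ldhb differed from Astrocytes by -3.22 in Glioblastoma, -0.89 in MIM-Astrocytes and -1.75 in NSC (log2, SE 0.093, adjusted p = 2.80e-10, 1.39e-05 and 4.83e-08). Ldha had 146, 142 and 151 FPKM in Glioblastoma, 151, 170.1 and 159 in MIM-Astrocytes and 76.8, 73.3 and 64.45 in NSC, against 193, 209 and 168 in Astrocytes. NSC stood alone below, and MIM-Astrocytes overlapped Glioblastoma and Astrocytes. Ldha differed from Astrocytes by -0.37 in Glioblastoma, -0.24 in MIM-Astrocytes and -1.40 in NSC (log2, SE 0.093, adjusted p = 0.00407, 0.0426 and 2.79e-07). The MIM-Astrocytes call did not hold without any 1 of 8 libraries, namely Glioblastoma replicates 1, 2 and 3 (adjusted p = 0.05765, 0.0567 and 0.0557), NSC replicate 2 (0.0568), Astrocytes replicates 1 and 2 (0.107 and 0.146) and MIM-Astrocytes replicates 1 and 3 (0.123 and 0.0939). Ldha as a share of summed Ldha and Ldhb FPKM was 54.97% ± 0.812 in Glioblastoma, 20.9% ± 0.746 in MIM-Astrocytes and 17.7% ± 0.206 in NSC, against 14.4% ± 0.3855 in Astrocytes (SD, n = 3 each). The sum of the pair was 266 ± 5.91 FPKM in Glioblastoma, 765.5 ± 58.9 in MIM-Astrocytes and 405 ± 31.7 in NSC, against 1315 ± 109.5 in Astrocytes. Against Astrocytes, the higher Ldha share in Glioblastoma went with less Ldhb and not with more Ldha. Against NSC, Glioblastoma differed by -1.47 in Ldhb and by 1.03 in Ldha (log2, adjusted p = 2.42e-07 and 3.55e-06).

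**Figure D3:**
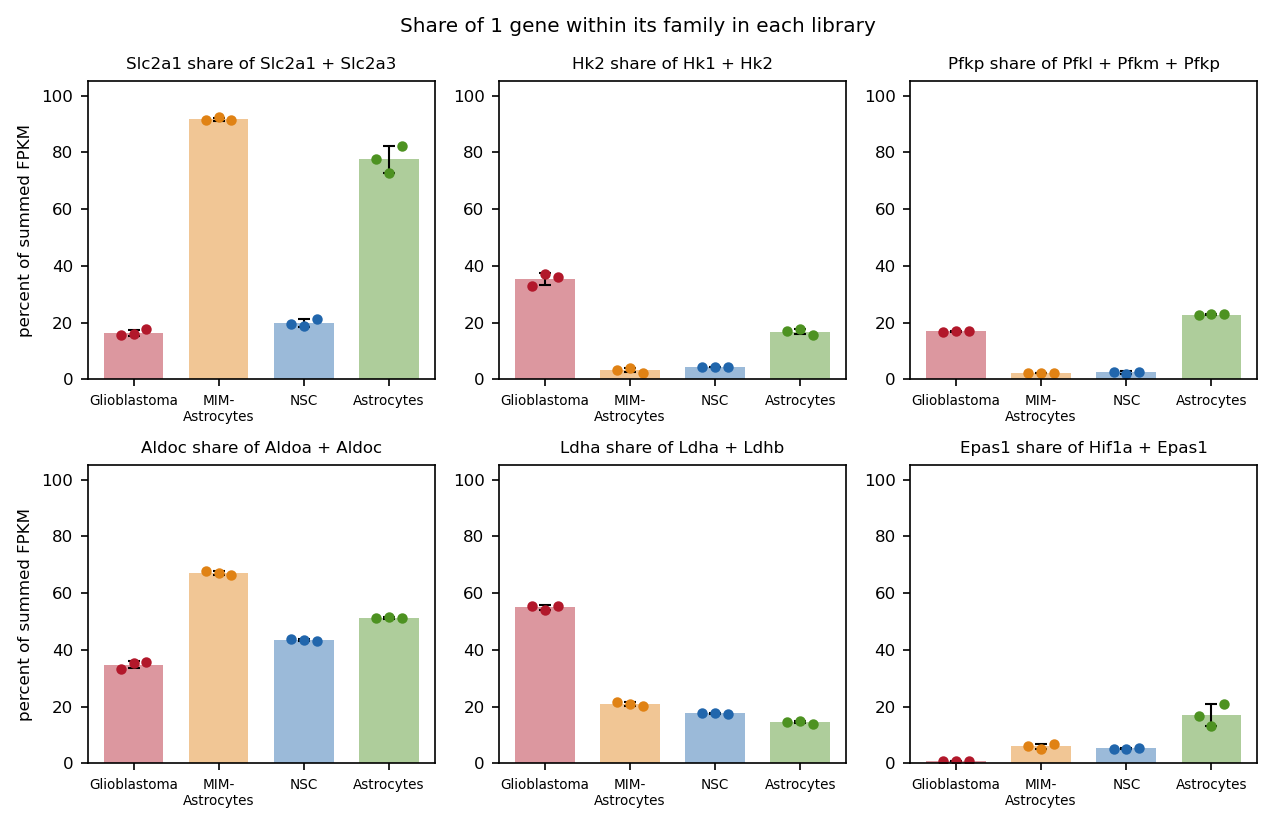
Share of the summed FPKM of a gene family held by 1 member in each library (points), with the group mean (bar) and SD (error bar), n = 3. Ldha holds 55.0% in Glioblastoma and 14.4% to 20.9% on average elsewhere, Slc2a1 holds 91.7% in MIM-Astrocytes, and Hk2 and Pfkp hold under 5% in MIM-Astrocytes and NSC.

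Slc2a1 as a share of summed Slc2a1 and Slc2a3 FPKM was 16.4% ± 1.08 in Glioblastoma, 91.7% ± 0.537 in MIM-Astrocytes and 19.8% ± 1.31 in NSC, against 77.55% ± 4.73 in Astrocytes (SD, n = 3 each). The sum of the pair was 21.8 ± 0.888 FPKM in Glioblastoma, 20.8 ± 1.84 in MIM-Astrocytes and 8.73 ± 0.544 in NSC, against 20.45 ± 2.83 in Astrocytes. Glioblastoma, MIM-Astrocytes and Astrocytes thus had similar sums, held mostly by Slc2a3 in Glioblastoma and mostly by Slc2a1 in both astrocyte groups. The sums, unlike the shares, depend on the scaling of a library.

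The 3 pyruvate dehydrogenase kinases among the 38 genes were called lower than in Astrocytes in 8 of 9 comparisons, and none was called higher. The lower share was 100% in Glioblastoma, 100% in MIM-Astrocytes and 66.7% in NSC, against 31.3%, 26.6% and 33.4% of all genes. Over all genes, 47%, 34.8% and 37.7% were called higher in the same order. Another kinase, Pdk3, is counted below with the genes of pyruvate entry into mitochondria and its oxidation there. Pdk1 is the hypoxia-inducible member, Pdk2 the common one, and Pdk4 the one induced by fasting. Pdk1 had 14.2, 13.2 and 17.95 FPKM in Glioblastoma, 6.28, 8.83 and 8.83 in MIM-Astrocytes and 8.12, 7.24 and 7.75 in NSC, against 24.35, 19.8 and 19.1 in Astrocytes. All Astrocytes libraries were highest, Glioblastoma came next, and MIM-Astrocytes overlapped NSC. Pdk1 differed from Astrocytes by -0.46 in Glioblastoma, -1.30 in MIM-Astrocytes and -1.34 in NSC (log2, SE 0.15, adjusted p = 0.01485, 2.25e-05 and 1.32e-05). The Glioblastoma call was lost without Glioblastoma replicate 2 or Astrocytes replicate 1 (adjusted p = 0.0587 and 0.06145). Pdk2 had 5.304, 4.16 and 4.62 FPKM in Glioblastoma, 12.4, 13.7 and 15.6 in MIM-Astrocytes and 12.4, 12.7 and 10.4 in NSC, against 23.6, 22.8 and 23.5 in Astrocytes. Astrocytes were highest and Glioblastoma lowest, with MIM-Astrocytes and NSC overlapping between them. Pdk2 differed from Astrocytes by -2.10 in Glioblastoma, -0.71 in MIM-Astrocytes and -0.92 in NSC (log2, SE 0.0998, adjusted p = 1.29e-08, 0.000131 and 1.25e-05). Pdk4 had 0.05896, 0.0445 and 0.178 FPKM in Glioblastoma, 1.35, 1.45 and 1.41 in MIM-Astrocytes and 2.801, 2.49 and 2.19 in NSC, against 2.29, 2.68 and 2.01 in Astrocytes. All 3 Glioblastoma libraries lay below 0.2 FPKM, and NSC overlapped Astrocytes. Pdk4 differed from Astrocytes by -1.60 in Glioblastoma and -0.47 in MIM-Astrocytes (log2, SE 0.089, adjusted p = 4.52e-08 and 0.00111), with no call in NSC (adjusted p = 0.486). Its NSC difference was called higher, at 0.16, under a common protein-coding total (adjusted p = 0.034).

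Gpd1 of the glycerol phosphate shuttle had the widest rise of the 38 genes in MIM-Astrocytes. Gpd1 encodes the cytosolic glycerol-3-phosphate dehydrogenase, and Gpd2 its mitochondrial partner, which together hand electrons from cytosolic NADH to the respiratory chain. Gpd1 had 1.335, 1.09 and 1.105 FPKM in Glioblastoma, 139, 172 and 156 in MIM-Astrocytes and 24.1, 24.5 and 21.05 in NSC, against 10.01, 10.55 and 8.52 in Astrocytes. The 4 groups stood at separate levels, with MIM-Astrocytes above 130 FPKM and Glioblastoma below 2. Gpd1 differed from Astrocytes by -2.29 in Glioblastoma, 3.87 in MIM-Astrocytes and 1.18 in NSC (log2, SE 0.0997, adjusted p = 6.48e-09, 3.14e-10 and 1.81e-06). MIM-Astrocytes also lay above NSC for Gpd1, by 2.69 (SE 0.0997, adjusted p = 1.77e-08). Gpd2 had 10.7, 10.7 and 11.98 FPKM in Glioblastoma, 148, 145 and 148 in MIM-Astrocytes and 13.4, 14.75 and 11.5 in NSC, against 130.5, 135 and 128 in Astrocytes. Both astrocyte groups lay above 120 FPKM and the other groups below 15. Gpd2 differed from Astrocytes by -3.45 in Glioblastoma and -3.22 in NSC (log2, SE 0.078, adjusted p = 4.94e-11 and 1.46e-10), with no call in MIM-Astrocytes (adjusted p = 0.095). Of the 2 partners, Gpd1 and not Gpd2 was called between MIM-Astrocytes and Astrocytes. Without NSC replicate 3, Gpd2 was called as well, at 0.16 (adjusted p = 0.0308), and the MIM-Astrocytes libraries lay above all Astrocytes libraries.

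**Figure D4:**
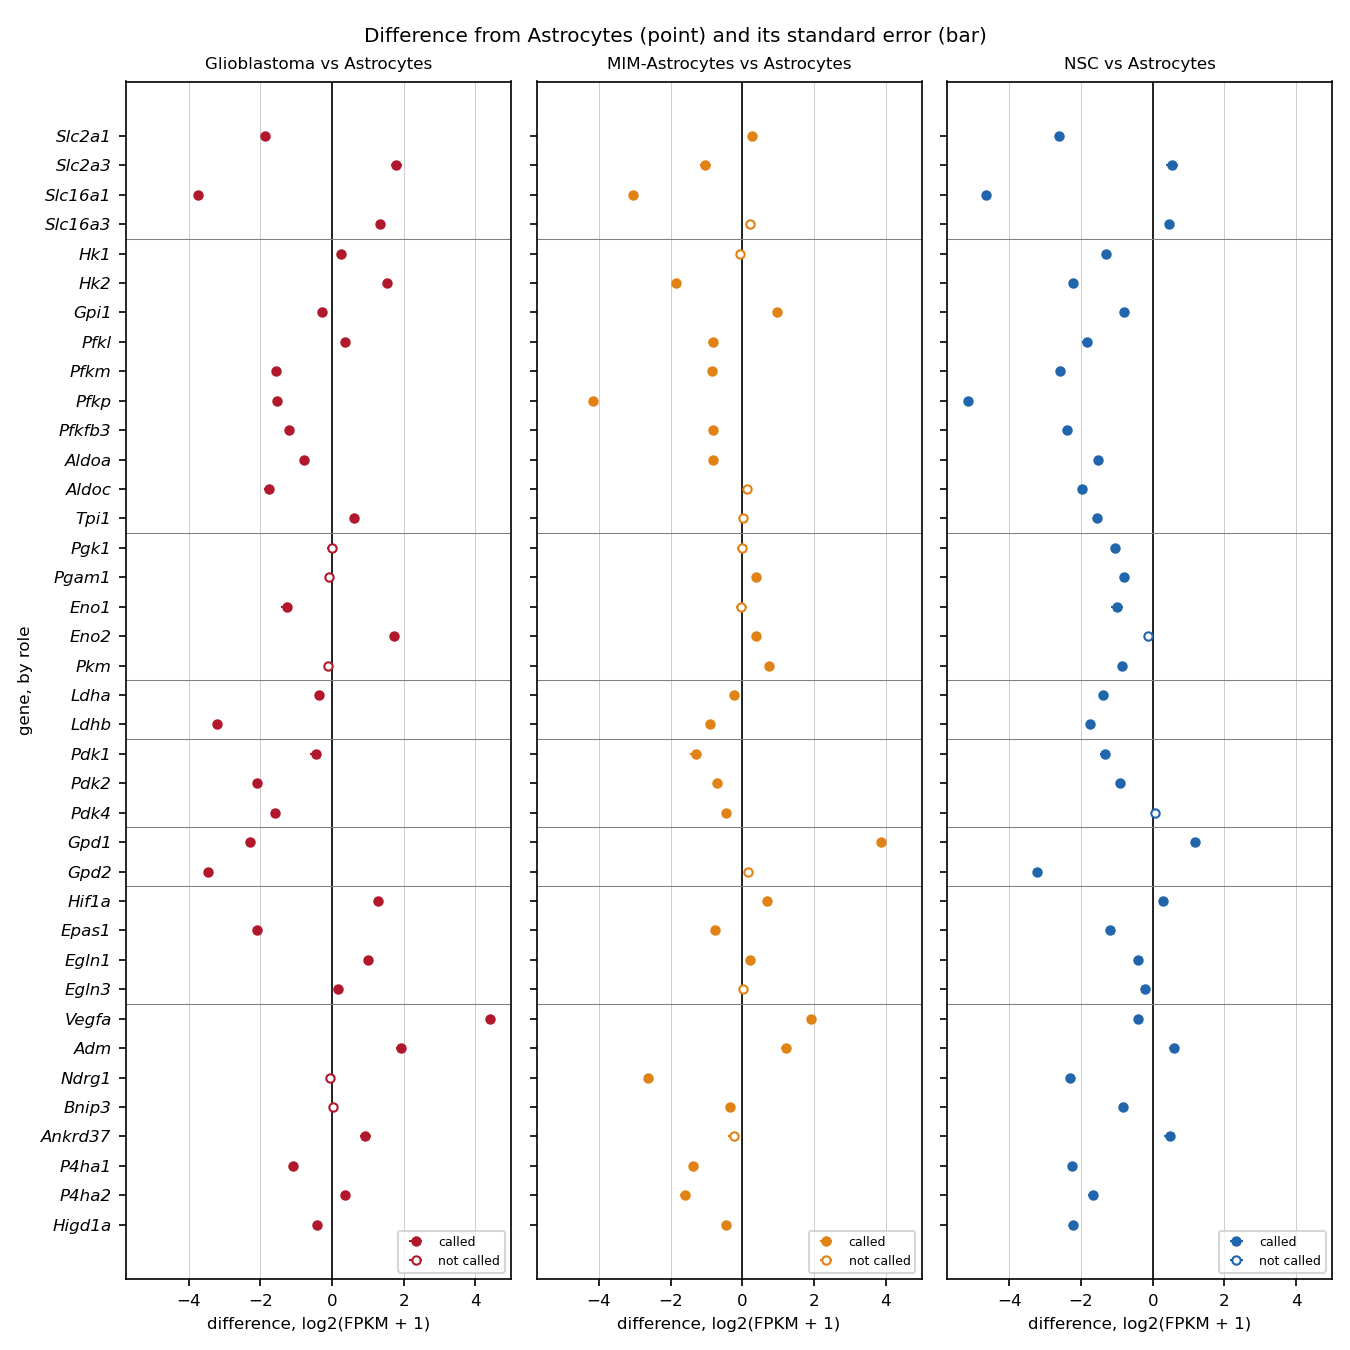
Difference in log2(FPKM + 1) from Astrocytes (point) with its standard error (bar) for each of the 38 genes, in Glioblastoma, MIM-Astrocytes and NSC. Filled points are called at an adjusted p below 0.05 and open points are not; in NSC 30 points lie filled to the left of 0, and Vegfa reaches 4.42 in Glioblastoma.

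Of the hypoxia regulators, Hif1a was higher and Epas1 lower than in Astrocytes in each group, except that Hif1a turned lower in NSC under a common total of all FPKM. Egln1 and Egln3 were called higher in Glioblastoma and lower in NSC. The Egln3 calls did not hold under every scaling. Hif1a had 69.8, 68.4 and 69.7 FPKM in Glioblastoma, 46.6, 45.8 and 44.9 in MIM-Astrocytes and 35.7, 34.8 and 32.9 in NSC, against 29.4, 29.9 and 24.98 in Astrocytes. The 4 groups were separate. Hif1a differed from Astrocytes by 1.28 in Glioblastoma, 0.69 in MIM-Astrocytes and 0.29 in NSC (log2, SE 0.066, adjusted p = 2.33e-08, 6.63e-06 and 0.00255), and the NSC rise turned to -0.10 under a common total of all FPKM. Epas1 had 0.592, 0.523 and 0.506 FPKM in Glioblastoma, 3.02, 2.43 and 3.29 in MIM-Astrocytes and 1.96, 1.91 and 1.84 in NSC, against 5.82, 4.56 and 6.63 in Astrocytes. Here too no group overlapped another, with Astrocytes first, then MIM-Astrocytes, NSC and Glioblastoma. Epas1 differed from Astrocytes by -2.10 in Glioblastoma, -0.76 in MIM-Astrocytes and -1.19 in NSC (log2, SE 0.11, adjusted p = 3.39e-08, 0.000187 and 4.70e-06). Epas1 as a share of summed Hif1a and Epas1 FPKM was 0.773% ± 0.0612 in Glioblastoma, 5.98% ± 0.896 in MIM-Astrocytes and 5.24% ± 0.0471 in NSC, against 16.9% ± 3.89 in Astrocytes (SD, n = 3 each). Egln1, the main oxygen sensor among the hydroxylases, ranged from 22.1 to 23.01 FPKM in Glioblastoma, 12.6 to 13.02 in MIM-Astrocytes and 7.48 to 8.24 in NSC, against 10.2 to 11.4 in Astrocytes. Egln1 differed from Astrocytes by 0.99 in Glioblastoma, 0.22 in MIM-Astrocytes and -0.41 in NSC (log2, SE 0.0504, adjusted p = 2.12e-08, 0.00302 and 3.42e-05), and the MIM-Astrocytes rise turned to -0.09 under a common total of all FPKM. Egln3, a hydroxylase that hypoxia induces in many cells, ranged from 3.19 to 3.505 FPKM in Glioblastoma, 2.75 to 3.125 in MIM-Astrocytes and 2.21 to 2.43 in NSC, against 2.79 to 2.935 in Astrocytes. Egln3 differed from Astrocytes by 0.16 in Glioblastoma and -0.22 in NSC (log2, SE 0.054, adjusted p = 0.01965 and 0.00434), with no call in MIM-Astrocytes (adjusted p = 0.862). The NSC call was lost under a common protein-coding total (adjusted p = 0.121). The Glioblastoma rise was called under none of the 4 scalings. It turned to -0.07 under median-of-ratios scaling, and to -0.31, called lower, under common-total scaling (adjusted p = 0.298 and 0.0101). It was also not called without Glioblastoma replicate 2 or Astrocytes replicate 2 (adjusted p = 0.0818 and 0.05355).

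Hypoxia targets moved in both directions against Astrocytes. Of the 8, 4 rose and 2 fell in Glioblastoma, 2 rose and 5 fell in MIM-Astrocytes, and 2 rose and 6 fell in NSC. In Glioblastoma the 50% higher and 25.0% lower lay near the 47% and 31.3% of all genes. The lower shares of 62.5% in MIM-Astrocytes and 75.0% in NSC stood against 26.6% and 33.4% of all genes. Against NSC, all 8 were called higher in Glioblastoma (44.8% of all genes), of which Ankrd37 lost its call under 3 of the 4 scalings. Vegfa, the main growth factor for blood vessels, had 179, 179.9 and 180.1 FPKM in Glioblastoma, 28.5, 32.6 and 30.7 in MIM-Astrocytes and 4.71, 6.19 and 5.12 in NSC, against 7.335, 8.34 and 6.76 in Astrocytes. The Glioblastoma libraries lay within 2 FPKM of each other, MIM-Astrocytes came second and NSC last, without overlap. Vegfa differed from Astrocytes by 4.42 in Glioblastoma, 1.90 in MIM-Astrocytes and -0.42 in NSC (log2, SE 0.093, adjusted p = 3.10e-11, 3.55e-08 and 0.00218). Adm encodes adrenomedullin, a peptide that widens vessels. Adm had 5.24, 5.46 and 4.22 FPKM in Glioblastoma, 3.09, 2.56 and 2.26 in MIM-Astrocytes and 1.365, 1.68 and 1.12 in NSC, against 0.356, 0.682 and 0.7045 in Astrocytes. The groups ran from Glioblastoma down through MIM-Astrocytes and NSC to Astrocytes, without overlap. Adm differed from Astrocytes by 1.92 in Glioblastoma, 1.203 in MIM-Astrocytes and 0.60 in NSC (log2, SE 0.13, adjusted p = 2.46e-07, 2.03e-05 and 0.00224). Vegfa and Adm were the hypoxia targets called higher in MIM-Astrocytes.

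Ndrg1, a stress-responsive gene that hypoxia induces, went the other way in MIM-Astrocytes. Ndrg1 had 5.55, 5.44 and 5.87 FPKM in Glioblastoma, 0.203, 0.0386 and 0.0775 in MIM-Astrocytes and 0.5701, 0.406 and 0.217 in NSC, against 6.45, 5.68 and 5.43 in Astrocytes. Glioblastoma overlapped Astrocytes, and the other groups lay below 1 FPKM. Ndrg1 differed from Astrocytes by -2.63 in MIM-Astrocytes and -2.30 in NSC (log2, SE 0.099, adjusted p = 4.48e-09 and 8.74e-09), with no call in Glioblastoma (adjusted p = 0.671). In Glioblastoma it was called lower under 3 of the 4 scalings, by -0.30, -0.58 and -0.26 under median-of-ratios, common-total and quantile scaling. P4ha1 and P4ha2 encode subunits of the prolyl hydroxylase that matures collagen. P4ha1 had 31.8, 30.1 and 32.2 FPKM in Glioblastoma, 25.35, 26.4 and 24.5 in MIM-Astrocytes and 14.4, 14.2 and 12.2 in NSC, against 65.6, 74.5 and 63.96 in Astrocytes. Astrocytes, Glioblastoma, MIM-Astrocytes and NSC followed each other downward without overlap. P4ha1 differed from Astrocytes by -1.09 in Glioblastoma, -1.38 in MIM-Astrocytes and -2.24 in NSC (log2, SE 0.076, adjusted p = 2.65e-07, 8.29e-08 and 1.45e-09). P4ha2 had 4.15, 4.28 and 3.62 FPKM in Glioblastoma, 0.145, 0.5196 and 0.202 in MIM-Astrocytes and 0.228, 0.296 and 0.145 in NSC, against 3.13, 3.27 and 2.36 in Astrocytes. Glioblastoma lay above Astrocytes, and the other groups overlapped each other below 1 FPKM. P4ha2 differed from Astrocytes by 0.36 in Glioblastoma, -1.61 in MIM-Astrocytes and -1.68 in NSC (log2, SE 0.12, adjusted p = 0.021, 1.25e-06 and 6.25e-07), but the Glioblastoma rise turned to -0.11 under a common total of all FPKM and was called under none of the 4 scalings. It was also not called without Glioblastoma replicate 1, Glioblastoma replicate 2 or Astrocytes replicate 3 (adjusted p = 0.0592, 0.0690 and 0.0869).

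Higd1a encodes a small mitochondrial protein that hypoxia induces. Higd1a had 69.1, 81.8 and 84.1 FPKM in Glioblastoma, 76.7, 79.8 and 71.7 in MIM-Astrocytes and 23.1, 23.4 and 19.04 in NSC, against 104, 118 and 94.4 in Astrocytes. Astrocytes were highest, Glioblastoma and MIM-Astrocytes overlapped, and NSC was lowest. Higd1a differed from Astrocytes by -0.42 in Glioblastoma, -0.46 in MIM-Astrocytes and -2.22 in NSC (log2, SE 0.11, adjusted p = 0.004795, 0.00414 and 2.69e-08). Bnip3, a mitophagy receptor, ranged from 17.7 to 20.6 FPKM in Glioblastoma, 13.75 to 15.7 in MIM-Astrocytes and 9.84 to 10.2 in NSC, against 18.2 to 18.7 in Astrocytes. Bnip3 differed from Astrocytes by -0.34 in MIM-Astrocytes and -0.82 in NSC (log2, SE 0.064, adjusted p = 0.00107 and 9.77e-07), with no call in Glioblastoma (adjusted p = 0.645). In Glioblastoma it was called lower under 3 scalings, by -0.25, -0.55 and -0.24 under median-of-ratios, common-total and quantile scaling. Ankrd37, a small target of HIF-1, stayed between 0.322 and 3.23 FPKM in all libraries. Ankrd37 differed from Astrocytes by 0.93 in Glioblastoma and 0.48 in NSC (log2, SE 0.16, adjusted p = 0.000264 and 0.0188), with no call in MIM-Astrocytes (adjusted p = 0.215). The NSC call was lost without NSC replicate 1, NSC replicate 2 or Astrocytes replicate 2 (adjusted p = 0.0522, 0.0605 and 0.0718), and under a common total of all FPKM (adjusted p = 0.132). Ankrd37 also overlaps Ufsp2 on the opposite strand, which averaged 16.05 ± 0.821 FPKM in Glioblastoma, 15.3 ± 0.8197 in MIM-Astrocytes and 14.1 ± 1.33 in NSC, against 14.2 ± 1.302 in Astrocytes, and whether the libraries keep strand is not given in the sources used here.

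Set against NSC, the widest rises in MIM-Astrocytes were those of Gpd2, Slc2a1 and Gpd1, at 3.38, 2.88 and 2.69 on the log2 scale (adjusted p = 1.204e-09, 3.65e-09 and 1.77e-08). The 4 genes lower in MIM-Astrocytes than in NSC were Slc2a3, Ankrd37, Pdk4 and Ndrg1, at -1.56, -0.71, -0.54 and -0.33 (adjusted p = 2.01e-05, 0.0029, 0.000517 and 0.0154). The Ndrg1 call was lost without NSC replicate 1 or MIM-Astrocytes replicate 2 (adjusted p = 0.0597 and 0.0561). In Glioblastoma the widest rises over NSC were those of Vegfa, Hk2 and Pfkp, at 4.84, 3.76 and 3.62 (adjusted p = 5.02e-11, 2.58e-10 and 2.56e-10). The 6 genes lower in Glioblastoma than in NSC were Gpd1, Pdk4, Ldhb, Pdk2, Epas1 and Gpd2, and their differences ran from -3.48 for Gpd1 to -0.23 for Gpd2. The Gpd2 call was lost without Glioblastoma replicate 1 or 2 or NSC replicate 1 or 2 (adjusted p = 0.0811, 0.0831, 0.0672 and 0.1005). The rise of Ankrd37 over NSC, at 0.45, was lost without Glioblastoma replicate 2 or NSC replicate 3 (adjusted p = 0.0884 and 0.0821) and under 3 of the 4 scalings.

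Of 85 other genes of the same pathways, taken by name, 69 were tested. In Glioblastoma 28 were higher and 29 lower than in Astrocytes, which is 40.6% and 42.0% against 47% and 31.3% of all genes. In MIM-Astrocytes 25 were higher and 27 lower, which is 36.2% and 39.1% against 34.8% and 26.6% of all genes. In NSC 17 were higher and 38 lower, which is 24.6% and 55.1% against 37.7% and 33.4% of all genes. The lists within these 69 are small and are read against the same all-gene shares. Of 11 genes of pyruvate entry into mitochondria and its oxidation there, 4 were higher and 5 lower in Glioblastoma (36.4% and 45.5%). In MIM-Astrocytes 5 were higher and 4 lower (45.5% and 36.4%), and in NSC none was higher and 10 lower (0% and 90.9%). In the pentose phosphate pathway, 3 of 8 were higher and 4 lower in Glioblastoma (37.5% and 50%), 2 higher and 2 lower in MIM-Astrocytes (25.0% each), and 1 higher and 5 lower in NSC (12.5% and 62.5%). Among 24 other genes of glycolysis, gluconeogenesis and glycogen, 7 were higher and 10 lower in Glioblastoma (29.2% and 41.7%), 9 higher and 11 lower in MIM-Astrocytes (37.5% and 45.8%), and 5 higher and 15 lower in NSC (20.8% and 62.5%). Among 28 other hypoxia genes, 14 were higher and 12 lower in Glioblastoma (50% and 42.9%), 9 higher and 12 lower in MIM-Astrocytes (32.1% and 42.9%), and 11 higher and 10 lower in NSC (39.3% and 35.7%). The higher shares of these hypoxia genes were near those of all genes in each group.

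Pcx and Pdp1 were among the 3 widest losses of these genes in each of the 3 groups set against Astrocytes. Pcx encodes pyruvate carboxylase, which refills the citric acid cycle and in brain is known from astrocytes, and Pdp1 the phosphatase that undoes the work of the pyruvate dehydrogenase kinases. Pcx averaged 4.33 ± 0.206 FPKM in Glioblastoma, 34.5 ± 2.35 in MIM-Astrocytes and 23.5 ± 1.29 in NSC, against 220.1 ± 8.25 in Astrocytes (SD, n = 3 each, as for the means that follow). It differed from Astrocytes by -5.37 in Glioblastoma, -2.64 in MIM-Astrocytes and -3.17 in NSC (log2, SE 0.063, adjusted p = 1.10e-12, 1.92e-10 and 4.18e-11). Pdp1 averaged 3.155 ± 0.184 FPKM in Glioblastoma, 5.69 ± 0.0822 in MIM-Astrocytes and 5.11 ± 0.538 in NSC, against 80.25 ± 6.52 in Astrocytes. Its differences from Astrocytes were -4.29 in Glioblastoma, -3.60 in MIM-Astrocytes and -3.73 in NSC (log2, SE 0.076, adjusted p = 1.02e-11, 7.95e-11 and 4.82e-11). Pygb, the brain glycogen phosphorylase, averaged 15.8 ± 1.87 FPKM in Glioblastoma, 125 ± 9.91 in MIM-Astrocytes and 129 ± 10.98 in NSC, against 402 ± 41.9 in Astrocytes. Gbe1, the glycogen branching enzyme, averaged 1.06 ± 0.1355 FPKM in Glioblastoma, 7.501 ± 0.189 in MIM-Astrocytes and 3.945 ± 0.657 in NSC, against 31.2 ± 2.275 in Astrocytes. Both were called lower in all 3 groups, by -4.58 and -3.97 in Glioblastoma, -1.68 and -1.92 in MIM-Astrocytes and -1.63 and -2.71 in NSC (each adjusted p at most 2.98e-07). Pygm, the muscle phosphorylase, averaged 0.766 ± 0.142 FPKM in Glioblastoma, 2.73 ± 0.217 in MIM-Astrocytes and 2.92 ± 0.496 in NSC, against 0.3902 ± 0.0456 in Astrocytes. Pygm differed by 0.34 in Glioblastoma, 1.42 in MIM-Astrocytes and 1.49 in NSC (log2, SE 0.096, adjusted p = 0.00753, 4.34e-07 and 2.12e-07). The liver form, Pygl, named after its values were seen, averaged 2.48 ± 0.474 FPKM in Glioblastoma, 0.307 ± 0.1703 in MIM-Astrocytes and 0.974 ± 0.413 in NSC, against 0.731 ± 0.216 in Astrocytes, and differed by 1.01 in Glioblastoma (SE 0.17, adjusted p = 0.000257), with no call in MIM-Astrocytes or NSC (adjusted p = 0.058 and 0.37). Fbp1, which encodes fructose-bisphosphatase of gluconeogenesis, averaged 0.274 ± 0.179 FPKM in Glioblastoma, 2.64 ± 0.399 in MIM-Astrocytes and 2.74 ± 0.701 in NSC, against 0.0461 ± 0.00617 in Astrocytes. Fbp1 differed by 1.79 in MIM-Astrocytes and 1.82 in NSC (log2, SE 0.14, adjusted p = 1.63e-06 and 9.96e-07), with no call in Glioblastoma (adjusted p = 0.101). Me1, cytosolic malic enzyme, averaged 12.5 ± 0.740 FPKM in Glioblastoma, 65.95 ± 1.74 in MIM-Astrocytes and 13.8 ± 0.773 in NSC, against 25.7 ± 0.392 in Astrocytes. Me1 rose in MIM-Astrocytes by 1.33 (SE 0.054, adjusted p = 8.29e-09).

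Among the other hypoxia genes, the widest rises in Glioblastoma were those of Vldlr, a lipoprotein receptor, Stc2, a secreted glycoprotein, and Ero1l, which oxidises disulfides in the endoplasmic reticulum. Vldlr averaged 45.5 ± 0.1765 FPKM in Glioblastoma, 12.1 ± 1.87 in MIM-Astrocytes and 7.45 ± 0.742 in NSC, against 4.63 ± 0.686 in Astrocytes. Stc2 averaged 7.27 ± 0.262 FPKM in Glioblastoma, 0.688 ± 0.334 in MIM-Astrocytes and 0.801 ± 0.207 in NSC, against 0.162 ± 0.04475 in Astrocytes. Ero1l averaged 61.1 ± 1.63 FPKM in Glioblastoma, 12.7 ± 0.599 in MIM-Astrocytes and 8.49 ± 0.6795 in NSC, against 9.73 ± 0.905 in Astrocytes. Their Glioblastoma differences were 3.05, 2.83 and 2.54 (adjusted p = 2.21e-09, 9.33e-09 and 2.64e-10). Angptl4, an inhibitor of lipoprotein lipase, averaged 0.0962 ± 0.0634 FPKM in Glioblastoma, 0.0881 ± 0.03798 in MIM-Astrocytes and 4.125 ± 0.546 in NSC, against 0.0562 ± 0.04585 in Astrocytes. NSC thus stood apart, at a difference of 2.27 (SE 0.084, adjusted p = 2.83e-09), but Angptl4 passed the filter on low values only through NSC, the group where it is high. Hmox1, the inducible haem oxygenase, averaged 30.05 ± 0.448 FPKM in Glioblastoma, 91.25 ± 10.4 in MIM-Astrocytes and 15.2 ± 1.39 in NSC, against 152 ± 14.9 in Astrocytes. Hmox1 differed from Astrocytes by -2.30 in Glioblastoma, -0.73 in MIM-Astrocytes and -3.24 in NSC (log2, SE 0.099, adjusted p = 5.96e-09, 9.46e-05 and 7.02e-10).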

How the data were processed

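Total RNA of 12 mouse libraries in 4 groups of 3 was sequenced, and the deposited values are FPKM per gene, which the authors made with Cufflinks on build GRCm38, per the submitters' processing notes. The aligner, the Cufflinks version and the strandedness are not given in the sources used here. Each file listed 53932 gene identifiers, and the 45 on more than 1 line were summed. Read counts were not used here, so the depth is unknown. Cufflinks' own intervals reached 8.45% to 10.6% of the value near 10 FPKM and 26.4% to 34.4% near 1 FPKM, and they cover counting error only.

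log2(FPKM + 1), computed from the deposited FPKM, was fitted in limma 3.58.1 under R 4.3.3. The model gave each of the 4 groups its own mean, used every library, left 8 residual degrees of freedom, and let the prior variance follow a trend with level. Genes needed 1 FPKM in at least 3 libraries and a Cufflinks status of OK in all 12, which left 16982 genes; Gapdh was left out by the status. P-values were adjusted by Benjamini-Hochberg over these genes in each of 5 comparisons, and called below 0.05, two-sided. The script was tested on simulated data. All 38 genes passed; Slc16a3 passed through Glioblastoma, where it is high. Slc16a3 reached 1 FPKM in 3 libraries, Ndrg1, Ankrd37 and P4ha2 in 6, Hk2 in 7, Pdk4, Epas1 and Adm in 9, and Pfkp in 11. No 2 libraries were identical, and within groups log2 values correlated at 0.968 to 0.977 across genes.

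The genes and lists were chosen with earlier results of these data known. Per-library values were given for each gene called with a difference of at least 1 against Astrocytes and for 16 genes named in any case, and the other genes were given by ranges. Of the 85 other pathway genes, the 3 widest called differences in each direction were named for each comparison with Astrocytes. Alternatives were 2 smaller pseudocounts, 2 other filters, 4 scalings, the status not used, the 6 libraries compared alone, a replicate block, array weights, a prior without trend, and leaving out each library. Promoter sequences are RefSeq's, on GRCm38.p6. Exons and overlaps were read from GENCODE release M21, which gives 36 of the 38 genes the same coordinates as the files. Python 3.11.15, pandas 2.3.3, NumPy 2.4.6 and matplotlib 3.10.9 were used.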

Additional observations from a re-analysis of the deposited data

How the results depend on the processing

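Of 168 called pairs of a gene and a comparison, 145 (86.3%) kept their direction and their call in every setting in which they were tested. Settings in which the gene failed the filter were not counted, such as Slc16a3 when a Glioblastoma library was left out. In at least 1 of the 14 settings other than leaving out a library, 20 pairs lost a call while keeping their direction. Hif1a in NSC and Egln1 in MIM-Astrocytes, which turned against Astrocytes under a common total and lost their call there, are not among these 20. Under median-of-ratios scaling, Hk1 and Egln3 in Glioblastoma against Astrocytes turned to -0.0478 and -0.0669 on the log2 scale. Under a common total of all FPKM, Hk1, Pfkl, Egln3 and P4ha2 in Glioblastoma turned to -0.356, -0.246, -0.307 and -0.1135 against Astrocytes. Of these, Hk1, Pfkl and Egln3 were called lower there (adjusted p = 0.0136, 0.042 and 0.0101). Under the same scaling, Slc2a1 and Egln1 in MIM-Astrocytes turned to -0.06365 and -0.0886 against Astrocytes, and Hif1a in NSC to -0.0976. Under quantile scaling, Hk1 and Tpi1 in Glioblastoma turned to -0.0594 and -0.0561. Against Astrocytes, the genes called higher numbered 9 in Glioblastoma, 6 in MIM-Astrocytes and 3 in NSC under the common total, and 9 in Glioblastoma under quantile scaling. With a mean of at least 5 FPKM required, fewer of the 38 genes were tested, so the counts do not compare directly with those above. Then 8 in Glioblastoma and 3 in NSC were higher than in Astrocytes, and 1 in MIM-Astrocytes was lower than in NSC. Of the 10289 genes tested under that filter, 5518, 4135 and 2558 were called in the same order. At the low and high ends of Cufflinks' intervals, the Slc2a1 share in MIM-Astrocytes was 94.7% and 89.2%, the Hk2 share in NSC 2.225% and 6.09% and in Astrocytes 15.4% and 18.1%, the Pfkp share in MIM-Astrocytes 2.04% and 2.43%, and the Epas1 share in Glioblastoma 0.669% and 0.869% and in NSC 5.06% and 5.40%. The cause of these changes was not tested. Among the pairs still tested, leaving out a library turned no direction, and 10 pairs lost a call. Against Astrocytes it left 11 to 14 genes higher and 18 to 19 lower in Glioblastoma, 9 to 11 higher and 18 to 19 lower in MIM-Astrocytes, and 5 to 6 higher and 30 lower in NSC. Against NSC it left 30 to 31 higher and 3 to 5 lower in MIM-Astrocytes, and 28 to 30 higher and 5 to 6 lower in Glioblastoma. Of 22 pairs not called, 18 were called in some setting. No same-numbered pair of libraries reached a correlation of 0.1 (-0.058 to 0.097), so the replicate numbers were not taken to pair the libraries. In NSC against Astrocytes the 3 same-numbered pairs were positive (0.0436 to 0.097) and the 6 others negative (-0.0705 to -0.00324), so each library correlated best with its own number, a hint from the data that no other comparison gave. The replicate block in all 12 libraries gave the same counts of 10 higher and 19 lower in MIM-Astrocytes, 6 and 30 in NSC and 14 and 19 in Glioblastoma against Astrocytes, and 30 and 4 in MIM-Astrocytes and 30 and 6 in Glioblastoma against NSC. With the replicate block in the 6 libraries compared, a setting added after the data were seen, 8 pairs lost their call, and the counts in the same order were 9 and 18, 6 and 30, 13 and 16, 29 and 4, and 30 and 5. limma's array weights stopped short of their convergence tolerance. Near 1 FPKM the intervals reach 26.4% to 34.4% of the value, which limits Slc16a3, Pdk4, Ndrg1, P4ha2 and Ankrd37 most.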
